A study of Homo sapiens with 4 samples.

Results

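The region described here is the long stretch without coding genes between TFAP2C and BMP7 on human chromosome 20, read as the contacts that 3 bait bins make with it. In hg19 coordinates it was taken as the 5 kb bins from 55,215,001 to 55,740,000, a span of 525 kb, paired with the bait bins at 55,200,001 to 55,205,000 (the TFAP2C bait), 55,380,001 to 55,385,000 (the 55.38 Mb bait) and 55,420,001 to 55,425,000 (the 55.42 Mb bait). Pairs within 10 kb of a bait and pairs of baits were left out. This left 301 bait-bin pairs over 103 bins, out of 1182 such pairs within 1 Mb of the baits: 103 for the TFAP2C bait and 99 for each of the others. The pairs were summed into 21 blocks of 25 kb. The last 2 baits lie inside the region, so the TFAP2C bait looks across it from its lower end and the others look out from its middle.

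The libraries were made by UMI-4C, a method that amplifies the ligation products of chosen DNA fragments in crosslinked, DpnII-cut chromatin and so counts how often a bait meets other places. All came from H9 cells, an established human embryonic stem cell line, carried to day 7 of differentiation towards surface ectoderm with retinoic acid at 1 uM plus BMP4 at 5 ng/ml and fixed in 1% formaldehyde. There were 2 libraries of wild-type cells and 2 of p63-/- cells (p63-null below), which share the line, the treatment and the day. The labels do not say how many clones the p63-null cells stand for, nor whether replicates came from separate cultures, so p-values measure only how these libraries vary, and that variation may be technical. TP63 itself lies on another chromosome, and the genotype was not checked against the data.

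Gene deserts beside developmental regulators often hold distant enhancers, and chromatin loops can bring these near a promoter far away. TFAP2C encodes an AP-2 family transcription factor of early ectoderm and trophoblast, BMP7 encodes a secreted growth factor of the bone morphogenetic protein family, and p63 is a transcription factor needed for stratified epithelia. Contact counts usually fall with distance from a bait, and a steep fall at the same place for several baits is the pattern seen at borders of contact domains. In the RefSeq gene order of GRCh38, used here for names only, the stretch between TFAP2C and BMP7 holds 0 coding genes, 3 long non-coding RNAs (LOC105372683, LOC105372685 and LOC105372686) and 4 pseudogenes. Their places in hg19 were not looked up, so blocks are named by coordinates alone.

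The libraries held 16744 to 44199 contacts on chromosome 20, and 525 to 1235 contacts of the 3 baits between 10 kb and 1 Mb. Of the latter, 964 and 513 in wild-type replicates 1 and 2 and 366 and 557 in p63-null replicates 1 and 2 lay in the desert. Of the 301 pairs, 238, 162, 127 and 182 had a contact, in the same order of libraries. Most pairs were thus read from few contacts, and the deepest library on the chromosome, p63-null replicate 2, was not the deepest here.

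In all 4 libraries the summed profile stayed high across most of the desert and fell near its far end. Between the 55.42 Mb bait and 55,665,000 the baits made 498 and 272 contacts in wild-type replicates 1 and 2 and 223 and 292 in p63-null replicates 1 and 2. These were 40.3%, 39.7%, 42.5% and 36.3% of the bait contacts of those libraries. The last 75 kb of the desert held 43, 35, 17 and 13 contacts, or 3.48%, 5.10%, 3.24% and 1.62%. The remaining 205 kb below the 55.42 Mb bait held 423, 206, 126 and 252 contacts. The division at 55,665,000 was chosen after the data were seen, and these shares are a description.

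**Figure D1:**
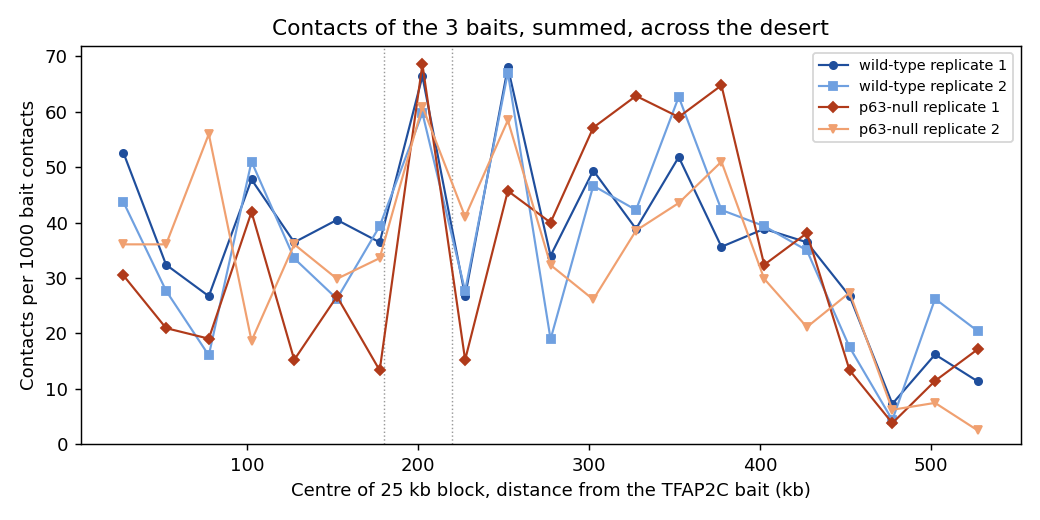
Contacts of the 3 baits summed per 25 kb block and divided by the library's bait contacts between 10 kb and 1 Mb (y axis, per 1000), against the distance of the block's centre from the TFAP2C bait (x axis, kb), with 1 line per library and dotted lines at the baits at 180 and 220 kb. All 4 lines meet at their lowest or near-lowest point in the block that starts at 465 kb, with 2 to 9 contacts.

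Distance was then taken into account. For each bait and library, a Poisson regression of the counts of all 5 kb bins within 1 Mb on a quadratic in log2 distance gave the expected contacts, and the ratio of counted to expected contacts is called the ratio to trend. The fit includes the desert itself and takes both sides of a bait together. For the 55.38 and 55.42 Mb baits no bin outside the desert lies nearer than 170 and 210 kb. Thus 61 and 77 of their 99 desert pairs lie at distances where only desert bins were counted. The trend there also depends on bins farther out, as a single curve was fitted over all distances.

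A run of blocks from 55,540,001 to 55,665,000, between 340 and 465 kb from the TFAP2C bait, stood above the trend in both genotypes. Its 5 blocks together held 234 and 135 contacts in wild-type versus 109 and 139 in p63-null libraries, and the ratio to trend was 2.15 and 2.14 against 2.07 and 2.03. Summed over the baits under this trend, the 4 libraries thus lay within a narrow range here. With a trend for each side of a bait apart the ratios were 1.77 and 1.55 against 1.43 and 1.75. For the 55.38 Mb bait alone, with both sides together, they were 2.28 and 1.67 against 1.06 and 1.75, the 1.06 from 9 contacts. Every library was above the trend for each of the other baits. The upper end of the run was chosen after the data were seen, so its height above the trend was partly selected. The first 4 blocks of the run had a summed ratio of at least 1.5 in each of the 4 libraries. These were 4 of 21 desert blocks, against 1 of 50 blocks outside the desert and 7.04% of all 71 blocks that the 3 baits cover.

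Under this trend the highest pooled ratios were found at different blocks of the run in the 2 genotypes. In wild-type the block 55,615,001 to 55,640,000 had 69 contacts where 28.4 were expected, a ratio of 2.43 (exact Poisson 95% interval 1.89 to 3.07, counting error only). In p63-null cells the block 55,565,001 to 55,590,000 had 75 contacts where 27.5 were expected, a ratio of 2.73 (2.15 to 3.42). The other genotype had 1.84 (1.30 to 2.54) at the first and 1.87 (1.46 to 2.35) at the second of these blocks. The block at 55,540,001 had 2.28 in wild-type versus 2.02 in p63-null libraries, and that at 55,590,001 had 2.26 and 1.75. In the last block of the run, at 55,640,001, p63-null replicate 1 was below the trend at 0.92 with 7 contacts, while the others ranged from 1.31 to 2.24. Scaled by its contacts with no bait, which are given below, this block was under the trend in all 4 libraries, at 0.70 in pooled wild-type and 0.63 in pooled p63-null counts. The place of the highest ratio depended on the trend. In wild-type it was 55,540,001 with a loess trend (2.80) and with each side apart (1.87). Scaled by contacts with no bait it was 55,615,001 in both genotypes (3.28 and 2.48). With each pair counted once the p63-null place was 55,640,001 (2.12). Whether the places differ between genotypes was not tested.

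**Figure D2:**
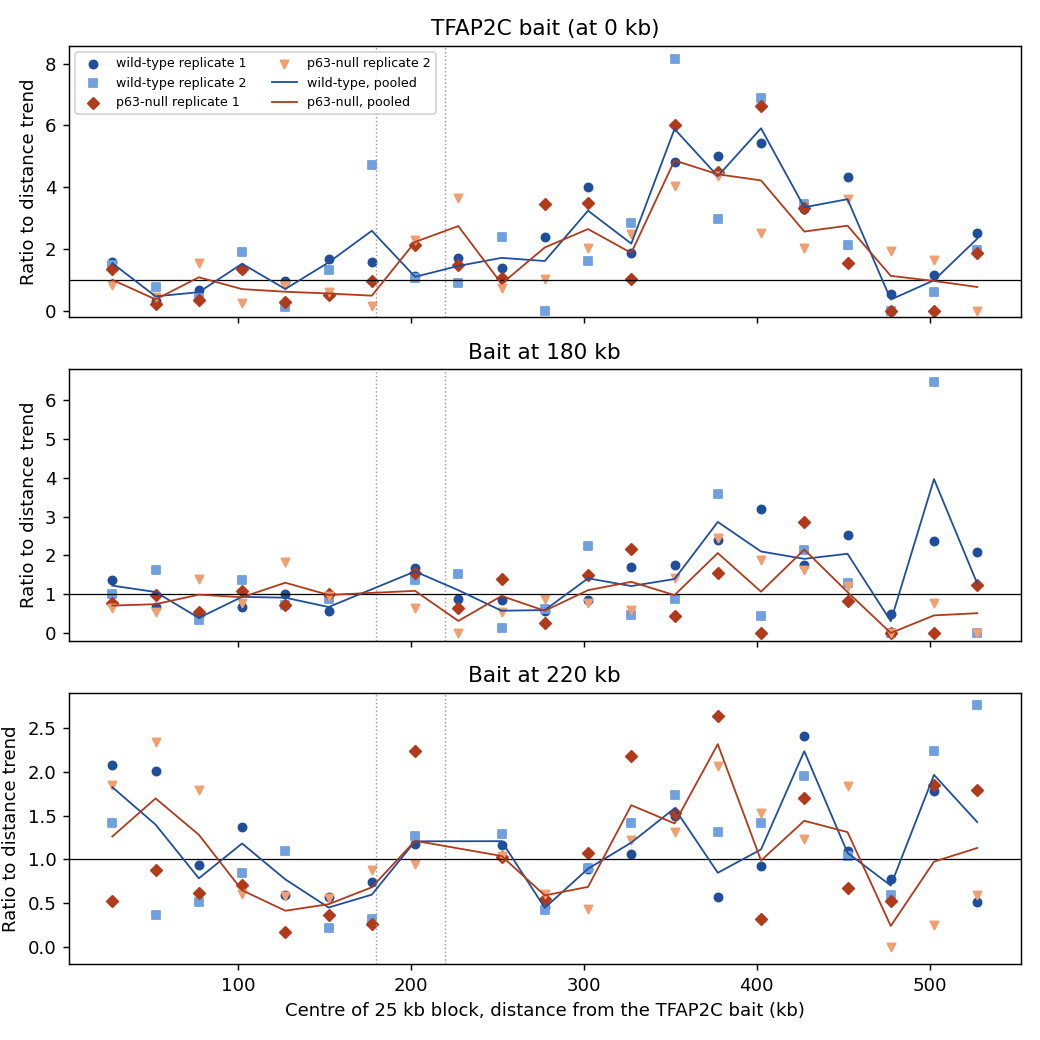
Ratio of counted to expected contacts per 25 kb block (y axis, 1 = distance trend) against the distance of the block's centre from the TFAP2C bait (x axis, kb), 1 panel per bait. Points are single libraries, lines pool the 2 replicates of a genotype, blocks with fewer than 3 usable bins are left out, and the scales of the panels differ. The TFAP2C bait is highest between 340 and 465 kb. In the block that starts at 465 kb the pooled wild-type line is below 1 in every panel. The pooled p63-null line there is above 1 for the TFAP2C bait and below 1 for the others.

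Few blocks were met above the trend by every bait. With a ratio of at least 1.5 in both replicates asked of each bait with at least 3 usable bins, 1 of 21 desert blocks counted in wild-type versus 1 in p63-null libraries, against 0 of 50 blocks outside the desert in either (1.41% of all 71 blocks in each genotype). In wild-type this was the block at 55,615,001. The TFAP2C bait met it 14 and 7 times (ratios 3.30 and 3.47), the 55.38 Mb bait 5 and 4 times (1.76 and 2.14) and the 55.42 Mb bait 26 and 13 times (2.41 and 1.96). In p63-null cells the same baits met it 7 and 6, 4 and 3, and 9 and 8 times, and it missed the rule through a single value, the 1.23 of the 55.42 Mb bait in replicate 2. All 12 values of this block, 3 baits in 4 libraries, lay above the trend. To count, a block needs a contact of each such bait in both replicates, which blocks outside with very few contacts could not reach.

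The block that counted in p63-null cells was that at 55,565,001. The TFAP2C bait met it 11 and 15 times (4.49 and 4.37), the 55.38 Mb bait 3 and 6 times (1.56 and 2.46) and the 55.42 Mb bait 20 and 20 times (2.64 and 2.07). In wild-type the first 2 baits were also above the rule, with 25 and 7 contacts (5.02 and 2.96) and 10 and 10 contacts (2.39 and 3.57), but the 55.42 Mb bait had 9 and 12 contacts, at 0.57 and 1.31. Of the 12 values, 11 lay above the trend. At least 11 of 12 above was reached by these 2 desert blocks and by 0 of 50 blocks outside (2.82% of all 71 blocks). A block needs at least 11 contacts for this. Only 44 blocks within 1 Mb held at least 10, 21 of them in the desert, and the rest could not reach it. The 2 blocks were also picked by the same values, so this count is a description.

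These calls rest on the trend that was chosen. With a trend for each side apart, the run from 55,540,001 to 55,665,000 had ratios of 2.47 in wild-type versus 2.25 in p63-null libraries for the TFAP2C bait, instead of 4.71 and 3.86. Over the 3 baits it had 1.68 and 1.59, instead of 2.14 and 2.05, and 0 blocks counted for all baits in either genotype. The 4 blocks with a summed ratio of at least 1.5 in all libraries became 1, that at 55,540,001. With each bait-bin pair counted once they were 2, those at 55,615,001 and 55,640,001.

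Taken bait by bait, the TFAP2C bait was above 1.5 in both replicates in 9 of 21 desert blocks in wild-type versus 7 in p63-null libraries, with 1 and 2 of 59 blocks outside the desert (12.5% and 11.2% of all usable blocks). With each side apart these counts were 4 and 3 in the desert. The 55.38 Mb bait had 3 and 2 of 20 usable blocks, and 1 and 2 of 59 outside (5.06% in each genotype over all usable blocks). The 55.42 Mb bait had 2 and 1 of 20, with 6 and 3 of 59 outside (10.1% and 5.06%), so this bait alone did not set the desert apart from its surroundings. Its 2 wild-type blocks were those at 55,615,001 and 55,690,001.

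Next to the run above the trend lay a block that the baits hardly met. The block 55,665,001 to 55,690,000, between 465 and 490 kb from the TFAP2C bait, was met, over the baits together, 9 and 3 times in wild-type versus 2 and 5 times in p63-null libraries. The block just below it had 33 and 12, and 7 and 22. Its pooled ratio was 0.56 (0.29 to 0.97) in wild-type, with 12 contacts where 21.5 were expected, and 0.46 (0.18 to 0.94) in p63-null cells, with 7 where 15.3 were expected. It was the lowest ratio of the 21 blocks in both genotypes, and the single libraries ranged from 0.30 to 0.67. That rank held with a loess trend and with each side apart. Scaled by contacts with no bait the block was at 0.75 and 0.62, and the lowest was that at 55,465,001, at 0.45 and 0.58. With each pair counted once it was at 0.84 in wild-type, where the block at 55,265,001 was lower at 0.77.

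All 3 baits met this block rarely, but few contacts were expected of each, only 1.05 to 1.99 a library for the 55.38 Mb bait. The TFAP2C bait met the block 2 and 0 times in wild-type versus 0 and 5 times in p63-null libraries, the 55.38 Mb bait 1 and 0 against 0 and 0 times, and the 55.42 Mb bait 6 and 3 against 2 and 0 times. Of the 12 values, 11 lay below the trend. The exception was the TFAP2C bait in p63-null replicate 2, at 1.94. Pooled over the p63-null libraries this bait was above the trend, at 1.14 (0.37 to 2.65). Among the pooled ratios of single baits, only that of the 55.42 Mb bait in p63-null cells had an interval without 1, at 0.24 (0.029 to 0.86). Outside the desert 21 of 50 blocks also had at least 11 of 12 values below the trend (31% of all 71 blocks), so the count alone does not single this block out. The bin 55,670,001 to 55,675,000 within it was the 1 bin of 103 with 0 contacts with any bait in the 4 libraries together.

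Contacts that involve no bait were also counted in each block. In the 4 libraries together, 43 such contacts had an end in the block at 55,665,001, as many as in the block at 55,615,001 that all baits met above the trend. Over the 21 desert blocks they ranged from 23 to 152, with a median of 56. The highest value, 152, was that of the block at 55,640,001 next to it, 110 of them within single bins. Across the 21 blocks, the log2 contacts with no bait and the log2 pooled ratio to trend had a Pearson's r of 0.24 in wild-type versus 0.38 in p63-null libraries, as a description of points that share their libraries.

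Beyond the low block the libraries parted. The last 2 blocks, from 55,690,001 to 55,740,000, had 34 and 32 contacts in wild-type, at ratios of 1.53 and 2.36, and 15 and 8 in p63-null cells, at 1.36 and 0.55. By this ratio both wild-type libraries lay above both p63-null libraries, p63-null replicate 1 close below wild-type replicate 1. By share of bait contacts the genotypes overlapped at 55,715,001, with 1.13% and 2.04% in wild-type versus 1.71% and 0.25% in p63-null libraries. In the block at 55,690,001 there were 20 and 18 contacts in wild-type versus 6 and 6 in p63-null libraries, or 2.12% ± 0.71 against 0.94% ± 0.28 of the bait contacts (SD, n = 2 each). The log2 fold change of p63-null over wild-type was -1.16 (SE 0.90, 95% interval -2.94 to 0.62), which did not pass, at an edgeR adjusted p of 0.823. The bin at 55,695,001 held 46% of the block's contacts, with 7 and 8 against 6 and 2.

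The position of the fall was read at each of the 20 block boundaries, as log2 of the ratio to trend in the 100 kb above over that in the 100 kb below. The step was deepest at 55.715 Mb in both wild-type libraries, at -1.37 and -0.70 (most of the window above lies past the desert). In p63-null replicate 1 it was deepest at 55.640 Mb, at -1.25, and in replicate 2 at 55.665 Mb, at -2.09. Over the 4 libraries pooled it was deepest at 55.665 Mb, at -1.10. The window above it runs 25 kb past the end of the desert. There the libraries had -1.07 and -0.48 in wild-type versus -1.09 and -2.09 in p63-null libraries, a mean of -0.78 ± 0.41 and -1.59 ± 0.71 (SD, n = 2 each). At each of the 4 boundaries from 55.640 to 55.715 Mb all 4 libraries were below 0. This was also so at 55.240 and 55.265 Mb, and windows of neighbouring boundaries overlap. Some values were near 0, at -0.020 for wild-type replicate 2 at 55.690 Mb and -0.023 for p63-null replicate 1 at 55.715 Mb. Within 1 Mb, 6 of 83 boundaries had a pooled step at least as deep as that at 55.665 Mb (itself included). By genotype these were 17 of 83 in pooled wild-type and 9 of 83 in pooled p63-null counts. In single libraries they were 13 and 23 in wild-type versus 12 and 7 in p63-null libraries. Scaled by the contacts with no bait, a choice made after seeing the data, the wild-type step at 55.665 Mb was -0.19 and the p63-null step -0.95, and the deepest step was at 55.640 Mb in both.

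**Figure D3:**
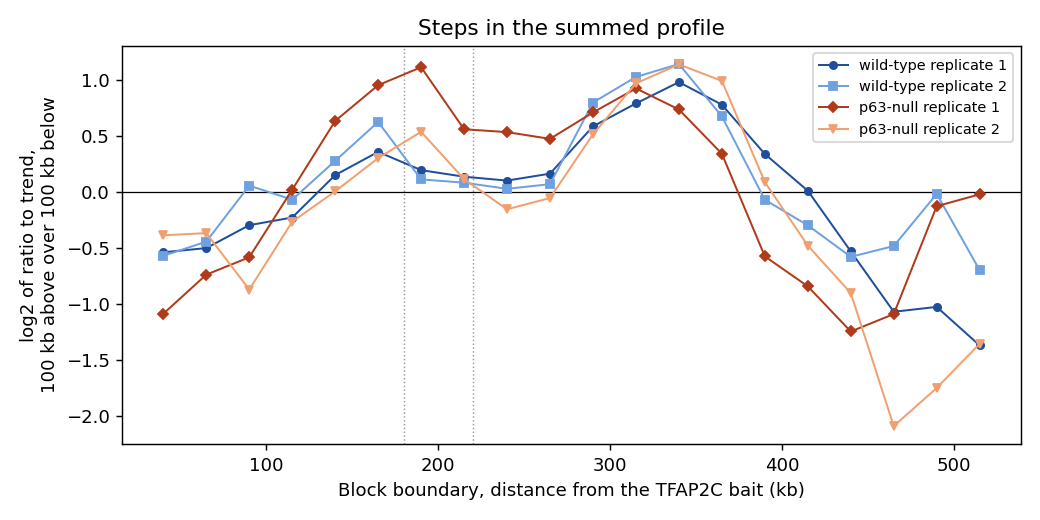
Log2 of the ratio to trend in the 100 kb above a block boundary over that in the 100 kb below, contacts of the 3 baits summed (y axis), against the distance of the boundary from the TFAP2C bait (x axis, kb), with 1 line per library. All libraries are above 0 between 290 and 365 kb and below 0 from 440 kb on, and also below 0 at 40 and 65 kb.

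The step was read for each bait, and for the TFAP2C bait it was present in every library. In the 100 kb below 55.665 Mb it made 81 and 33 contacts in wild-type versus 36 and 39 in p63-null libraries, and in the 100 kb above 14 and 4 against 3 and 10. Its ratio to trend went from 4.35 to 0.92 in wild-type versus from 3.55 to 0.81 in p63-null libraries, log2 steps of -2.22 and -2.10, and all 4 libraries fell by at least 1.54 on the log2 scale. For the 55.38 Mb bait the pooled steps were -0.59 and -1.13, with 1 library, p63-null replicate 1, at 0.12. For the 55.42 Mb bait they were -0.09 and -1.40, with wild-type replicate 2 at 0.19 and p63-null replicate 2 at -2.89. A fall shared by all baits was thus present in wild-type replicate 1 and p63-null replicate 2, and not in the other 2 libraries.

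Pairs with a contact were also counted on either side, with no correction for distance, which lowers the expected contacts above the boundary too. In the 75 kb below 55.665 Mb, 39, 24, 20 and 27 of 45 bait-bin pairs had a contact in wild-type replicates 1 and 2 and p63-null replicates 1 and 2. In the 75 kb above, up to the end of the desert, these were 21, 13, 7 and 7 of 45. These pairs hold the same contacts as above and are a description. In the 75 kb past the desert the baits made 11 and 8 contacts in wild-type versus 12 and 10 in p63-null libraries.

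Nearer to the baits some blocks lay under the trend. In wild-type the lowest after 55,665,001 were the block at 55,465,001, with 42 and 13 contacts and a ratio of 0.61 (0.46 to 0.79), and that at 55,265,001, with 33 and 11 contacts and 0.63 (0.46 to 0.84). In p63-null cells they were the block at 55,340,001, with 14 and 24 contacts and 0.60 (0.42 to 0.82), and that at 55,315,001, with 8 and 29 contacts and 0.65 (0.46 to 0.90). The blocks at 55,315,001 and 55,340,001 were below the trend in all 4 libraries, as was that at 55,465,001. The block at 55,265,001 was at 0.50 and 1.62 in the p63-null libraries, so its replicates disagreed in direction.

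The genotypes were compared to ask whether loss of p63 changed contacts with particular places in the desert. Counts per block, summed over the baits, were tested with edgeR's quasi-likelihood test in all blocks within 1 Mb that held at least 10 contacts, 44 in all, with Benjamini-Hochberg adjustment over the 44. No desert block changed at an adjusted p under 0.05, and 0 of all 44 did (0% called). At an unadjusted p under 0.05 there were 2 blocks, 1 of them in the desert, and DESeq2 called 0, with 1 at an unadjusted p under 0.05. The median log2 fold change was -0.27 over the 21 desert blocks and 0.03 over the 44. It was below 0 in 15 desert blocks and in 20 of all 44. These changes are relative to the bait contacts within 1 Mb. Scaled instead to all contacts between bins of chromosome 20, the median over the 44 blocks was -0.98. Of the 44 blocks 12 then passed, all of them in the desert and lower in p63-null libraries. The half-width of the 95% interval had a median of 0.94 on the log2 scale over the desert blocks, so changes of almost 2-fold were within the error of a typical block.

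The smallest p in the desert belonged to the block 55,290,001 to 55,315,000. It held 59 and 35 contacts in wild-type versus 22 and 15 in p63-null libraries, or 4.94% ± 0.23 and 3.03% ± 1.64 of the bait contacts (SD, n = 2 each). Both p63-null libraries were lower, replicate 1 only slightly. The log2 fold change was -0.77 (SE 0.39, interval -1.53 to -0.0027), with an edgeR adjusted p of 0.823. Next came the block 55,565,001 to 55,590,000, described above, with 44 and 29 against 34 and 41 contacts, or 3.90% ± 0.47 and 5.79% ± 0.97, a log2 fold change of 0.57 (SE 0.31, interval -0.044 to 1.18) and the same adjusted p; scaled to all contacts of the chromosome between bins the fold change was -0.45. The block 55,265,001 to 55,290,000 had 33 and 11 against 10 and 45 contacts, or 2.14% ± 0.76 and 3.75% ± 2.61, and a log2 fold change of 0.82 (SE 0.49), again with an edgeR adjusted p of 0.823, and -0.24 under that scaling. Here p63-null replicate 1, at 1.90%, lay between the wild-type libraries, and replicate 2, at 5.60%, above both.

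These values depended on the library left out and on the scaling. Without p63-null replicate 1, the blocks at 55,265,001 and 55,290,001 passed, with log2 fold changes of 1.28 and -1.38 and an edgeR adjusted p of 0.00228 for both. Without p63-null replicate 2 they were -0.26 and -0.22. Over the 12 alternatives that keep the same blocks, the log2 fold change ranged from -0.26 to 1.28 for the first and from -1.77 to -0.22 for the second. The -1.77, with an edgeR adjusted p of 0.000596, came with scaling to all contacts between bins of chromosome 20.

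**Figure D4:**
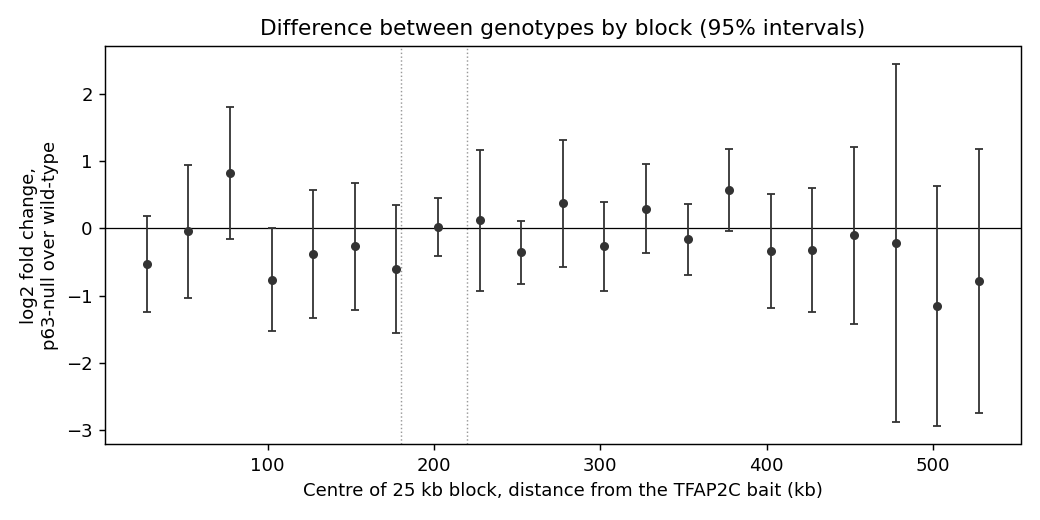
Log2 fold change of p63-null over wild-type contacts per 25 kb block of the desert, summed over the 3 baits (y axis), against the distance of the block's centre from the TFAP2C bait (x axis, kb). Points are edgeR estimates with 95% intervals from 2 libraries per genotype; 20 of 21 intervals include 0, and none of the 21 blocks passed after adjustment.

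The shares of the 4 libraries did not overlap between genotypes in 6 desert blocks that were lower and 1 that was higher in p63-null cells, out of 21. Over all 44 tested blocks this was so for 15.9% and 13.6%. The lower ones were those at 55,215,001, 55,290,001, 55,365,001, 55,440,001, 55,590,001 and 55,690,001, spread over the whole desert. The higher one was the block at 55,565,001. The shares of a library add up to a fixed total, so these counts are not independent of the lower share of the whole desert in p63-null cells.

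Tested bait by bait, 0 desert blocks passed for each bait, out of 19, 18 and 21 tested for the TFAP2C, 55.38 Mb and 55.42 Mb baits (0% of 30, 20 and 32 blocks called). In each bait 1 desert block had an unadjusted p under 0.05. DESeq2 also called 0, with 0, 0 and 1 blocks at an unadjusted p under 0.05. For the 55.42 Mb bait the smallest p was at 55,565,001, with 9 and 12 against 20 and 20 contacts, log2 fold change 1.53 (SE 0.60, interval 0.34 to 2.73), edgeR adjusted p = 0.384. For the 55.38 Mb bait it was at 55,690,001, with 4 and 7 against 0 and 1 contacts, log2 fold change -2.67 (SE 1.51), edgeR adjusted p = 0.163. For the TFAP2C bait it was at 55,340,001, with 21 and 8 against 3 and 5 contacts, log2 fold change -1.45 (SE 0.58), edgeR adjusted p = 0.542. With no filter on low counts the neighbouring block at 55,365,001 passed for this bait, with 14 and 20 against 4 and 1 contacts, log2 fold change -2.50, edgeR adjusted p = 0.0349. The 55.38 Mb bait lies within that block.

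The desert as a whole took a smaller part of the bait contacts in the p63-null libraries. It held 78.1% (Wilson 95% interval 75.7 to 80.3) and 74.8% (71.4 to 77.9) of the wild-type contacts, and 69.7% (65.7 to 73.5) and 69.3% (66.0 to 72.4) of the p63-null contacts. The means were 76.4% ± 2.32 and 69.5% ± 0.31 (SD, n = 2 each), and the groups did not overlap. The two-sided exact permutation p was 0.33, the smallest that 2 against 2 libraries can give. The difference was -6.92 percentage points.

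The share was then read for each bait. For the 55.38 Mb bait, which lies inside the desert, the share was 86.5% and 87.6% in wild-type versus 70.9% and 65.4% in p63-null libraries, a difference of -18.9 percentage points (exact permutation p = 0.33). For the TFAP2C bait it was 73.2% and 72.7% against 64.0% and 56.6%, a difference of -12.7 points (exact permutation p = 0.33). For the 55.42 Mb bait it was 79.0% and 72.0% against 74.6% and 81.2%, so the genotypes overlapped (exact permutation p = 0.67). Its difference of 2.36 points became -1.18 without wild-type replicate 2 and -0.94 without p63-null replicate 2, and 7.30 with each bait-bin pair counted once. Whether the baits differ in their response was not tested.

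**Figure D5:**
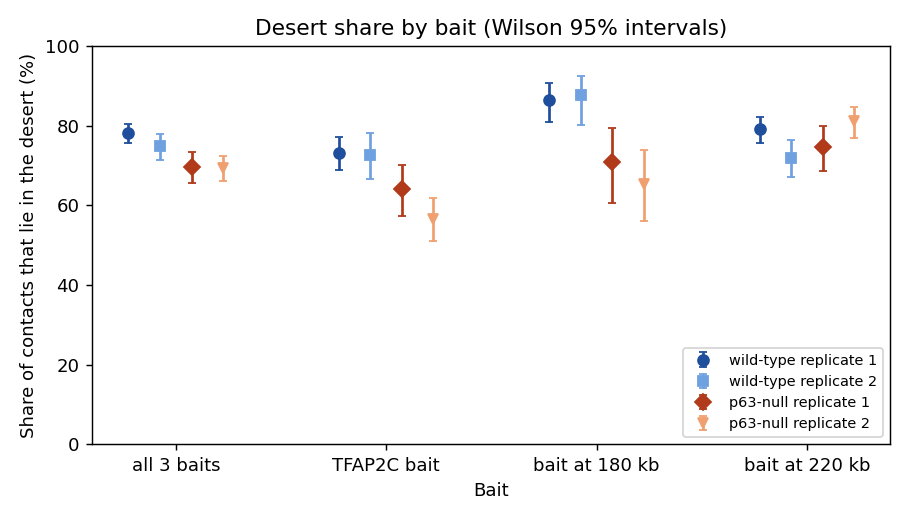
Share of a library's bait contacts between 10 kb and 1 Mb that lie in the desert (y axis, %), for the 3 baits together and each alone (x axis), with 1 point per library and Wilson 95% intervals that cover counting error only. The p63-null libraries are below the wild-type libraries except for the bait at 220 kb, where they overlap.

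The reach of the baits into the desert was read from where their contacts accumulate. On its higher side the TFAP2C bait made 90% of its desert contacts within 430 and 410 kb in wild-type versus 410 and 440 kb in p63-null libraries, that is, by 55.61 to 55.64 Mb. Its median desert contact lay at 270 and 225 kb, and at 300 and 240 kb. The 55.38 Mb bait reached 90% at 55.640 and 55.690 Mb in wild-type versus at 55.625 and 55.630 Mb in p63-null libraries. The 55.42 Mb bait reached it at 55.645 and 55.695 Mb, and at 55.675 and 55.635 Mb. Wild-type replicate 2 lay farthest for the baits inside the desert.

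Single 5 kb bins were met unevenly. Of the 301 pairs, 57 had a contact in all 4 libraries, 54 in 1 library only and 23 in none. The 55.42 Mb bait had 31 of its 99 pairs met in all libraries, the TFAP2C bait 17 of 103 and the 55.38 Mb bait 9 of 99, in the order of their depth. By contacts over all libraries the busiest pairs were neighbours of the 55.42 Mb bait, led by the bin at 55,440,001 with 29 and 11 contacts in wild-type versus 3 and 11 in p63-null libraries. The first pair over 100 kb long in that order was the same bait with the bin at 55,535,001, 115 kb away, with 12 and 4 against 14 and 3 contacts. Here replicate 1 was high in both genotypes.

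Within the run above the trend, the busiest bin held 25.9% to 39.6% of a block's contacts. In the block at 55,565,001 it was the bin 55,580,001 to 55,585,000, with 17 and 7 contacts in wild-type versus 13 and 12 in p63-null libraries, 33.1% of the block. It was the 1 bin of 103 that all 3 baits met in all 4 libraries. The TFAP2C bait met it 10 and 2 times in wild-type versus 8 and 4 times in p63-null libraries, the 55.38 Mb bait 3 and 3 against 1 and 1 times, and the 55.42 Mb bait 4 and 2 against 4 and 7 times. In the block at 55,615,001 the busiest bin was 55,630,001 to 55,635,000, with 21 and 12 against 5 and 4 contacts, 39.6% of the block. In the block at 55,540,001 it was 55,545,001 to 55,550,000, with 30 and 14 against 4 and 8 contacts, and in the block at 55,590,001 it was 55,600,001 to 55,605,000, with 16 and 8 against 5 and 1.

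The likeness of profiles was described over the 21 blocks, as Pearson's r of the log2 ratio to trend plus 0.1. Points of a library share its depth, and the values carry no test. Summed over the baits, r was 0.89 between the wild-type replicates, 0.33 between the p63-null replicates and 0.72 between the pooled genotypes. For single baits it was lower, at 0.60, 0.28 and 0.31 between wild-type and 0.21, -0.033 and -0.016 between p63-null replicates, for the TFAP2C, 55.38 Mb and 55.42 Mb baits. Between baits, in pooled wild-type, r was 0.56 for the TFAP2C and 55.38 Mb baits over 20 blocks, 0.57 for the 55.38 and 55.42 Mb baits over 19 blocks, and 0.17 for the TFAP2C and 55.42 Mb baits. In p63-null cells these were 0.25, 0.60 and 0.38. The summed profile was thus more alike between replicates than that of any bait alone.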

How the data were processed

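UMI-4C libraries of 2 wild-type and 2 p63-null samples were analysed. The authors deposited raw contact counts per pair of 5 kb bins of chromosome 20, with no normalization. The tools named are HiC-Pro and Bowtie, on the hg19 (GRCh37) build, per the submitters' processing notes; versions, and whether repeated copies of a product were collapsed, are not given in the sources used here. The Poisson and Wilson intervals cover counting error only, and may be too narrow if copies were not collapsed. The edgeR intervals also include variation between libraries.

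From these counts the bait-bin pairs were summed into 25 kb blocks. The library size was the total of bait contacts between 10 kb and 1 Mb, 525 to 1235 per library. Blocks with at least 10 contacts were tested two-sided with edgeR 4.0.16 (R 4.3.3), glmQLFit and glmQLFTest, at an adjusted p of 0.05; the SE is the fold change over the root of F and not below counting error. Distance trends used statsmodels 0.14.6. Steps used a pseudocount of 0.5. Shares were compared by exact permutation tests (scipy 1.17.1). DESeq2 1.42.0, TMM, other trends, windows and left-out libraries were alternatives. The test was tried on simulated data.

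Members, baits and rules were chosen with earlier results of these data known. The blocks named were those with the 3 smallest p, those above the trend for all baits, the lowest 3 ratios, and the deepest steps per library, with the busiest bin of each; others were named after their values were seen. No hg19 sequence was used.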

Additional observations from a re-analysis of the deposited data

How the results depend on the processing

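The count of 0 changed desert blocks, summed over the baits, held in 12 of 14 alternatives; it ranged from 0 to 2 as each replicate was left out, with 2 without p63-null replicate 1 (1.28 on the log2 scale at 55,265,001 and -1.38 at 55,290,001). Scaled to all contacts between bins of chromosome 20 it was 12, all lower in p63-null cells, and 12 was also the count over all 44 blocks. This scaling moves the median log2 fold change of the 44 blocks from 0.03 to -0.98, and that of the desert blocks to -1.27. It also turned the log2 fold changes at 55,565,001 (-0.45) and 55,265,001 (-0.24), and the latter was -0.26 without p63-null replicate 2. With no filter on low counts, 1 desert block passed for the TFAP2C bait. The difference in desert share of the 55.42 Mb bait ranged from -1.18 to 5.91 points as each replicate was left out, with -0.94 without p63-null replicate 2, and was 7.30 with each pair counted once. Blocks above the trend for all baits in wild-type numbered 0 at a ratio of 2, with each side apart, with each pair counted once and with the grid moved by 10 kb, and 2 with a loess trend; in p63-null cells they numbered 2 at a ratio of 1.2, 0 at a ratio of 2 and with each side apart, and 1 to 3 as each replicate was left out. The p63-null count was also 1 scaled by contacts with no bait and with the grid moved by 10 kb, but the blocks were those at 55,615,001 and 55,625,001, not that at 55,565,001. The deepest wild-type step moved to 55.665 Mb with windows of 150 kb and to 55.64 Mb scaled by contacts with no bait, where its size at 55.665 Mb was -0.19; the p63-null one moved to 55.64 Mb under that scaling and was at 55.64 to 55.665 Mb as each replicate was left out. The cause was not tested. Same-numbered replicates did not deviate together (r = -0.16 over 44 blocks), so the numbers were not taken as pairs; the replicate block called 0 desert blocks, as did the crossed pairing, which was added after seeing the data. A trend from bins outside the desert alone was not run, since for the baits at 55.38 and 55.42 Mb no such bin lies nearer than 170 and 210 kb. With 2 libraries a group and 525 to 1235 bait contacts, the typical block could not show changes under almost 2-fold.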
